A study of Caenorhabditis elegans with 12 samples.

Results

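Worms of N2, the wild-type laboratory strain of the nematode Caenorhabditis elegans, were compared at 5 days of age after rotenone and after dimethyl sulfoxide (DMSO). Rotenone worms had received 100 nM rotenone beginning at L4, which is the final larval stage, over 24 h, and DMSO worms 0.1% of this solvent. Each group had 3 libraries of RNA from whole hermaphrodites, so 6 of the 12 libraries of the series were compared. The other 6 came from worms treated in the same 2 ways and taken at 15 days of age. All genes of the deposited count table that passed a filter on low counts were members, 17166 of 46748. The labels give neither the start nor the length of the DMSO treatment, and do not say whether rotenone worms also received DMSO, from which event age was counted, or how offspring were removed. They do not say that replicates came from separate cultures, so p-values measure the spread between these libraries, which may be technical. In RNA of whole animals, fewer cells of a type and less RNA per cell cannot be told apart.

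Rotenone blocks complex I, the entry point for electrons from NADH into the mitochondrial respiratory chain. Electrons released by fatty acid oxidation and by amino acid breakdown enter the same chain, and in C. elegans the intestine is a main site of fat storage, yolk production and digestion. Fat metabolism genes of the worm are controlled in part by nuclear hormone receptors such as NHR-49, and the genes of propionate breakdown by NHR-10 and NHR-68.

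Rotenone worms had 45612486 to 49375222 counts per library and DMSO worms 43507026 to 53716605. Levels are given in CPM, counts relative to library size, after TMM scaling, which equalises libraries on the bulk of genes. Calls required a p under 0.05 in edgeR's quasi-likelihood test after Benjamini-Hochberg adjustment. Of 17166 genes, 7668 were called (44.7%), 3662 higher after rotenone (21.3%) and 4006 lower (23.3%). Most differences were small, with a median size of 0.27 on the log2 scale among called genes. At least 2-fold differences were called in 115 genes that rose (0.67%) and 133 that fell (0.775%). The libraries of the groups did not overlap in 9313 genes (54.3%), so a lack of overlap in a single gene is common. It was also a condition for the 12 largest log2 rises and 12 largest log2 falls named below. The median log2 difference over all genes was 0.03 with TMM scaling and 0.15 with plain library totals, which gave 6498 genes up and 1774 down. Small differences therefore changed sign or call with the scaling, and the count of each gene group below is followed by its count with library totals. Group counts with TMM scaling are to be read beside the shares of all genes, 21.3% higher and 23.3% lower. Those with library totals belong beside 6498 higher and 1774 lower of the 17166 genes, many more rises and fewer falls. Those with DESeq2 belong beside 2426 higher and 4100 lower.

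**Figure D1:**
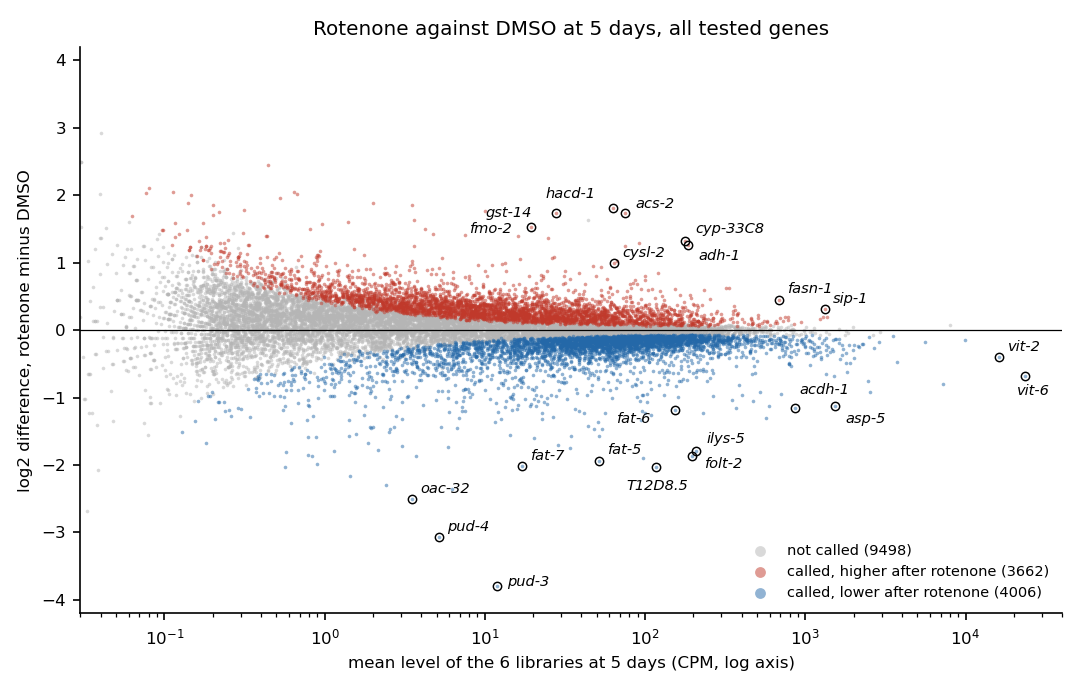
Mean level of each gene over the 6 libraries at 5 days (CPM, log axis) against the log2 difference, rotenone minus DMSO; red genes were called higher, blue genes lower, and 41 genes lie outside the axes. The largest falls among genes of at least 1 CPM (pud-3, pud-4, oac-32) lie further from 0 than the rises such as hacd-1 and acs-2.

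Some genes of fatty acid oxidation were among the strongest rises. The product of acs-2, on chromosome V, 15567394 to 15569897 of WBcel235, couples fatty acids to coenzyme A before they are oxidised. acs-2 had 117, 115 and 116 CPM in rotenone worms, against 35.2, 35.5 and 33.2 CPM in DMSO worms. hacd-1, a predicted hydroxyacyl-CoA dehydrogenase gene at chromosome V, 1460369 to 1461613, had 98.9, 93.6 and 100.3 CPM in rotenone worms, against 29.1, 27.6 and 26.8 CPM in DMSO worms. In both genes the rotenone libraries lay far above all DMSO libraries, and the log2 differences were 1.74 ± 0.04 and 1.81 ± 0.05 (± SE of the fit; adjusted p = 1.39e-16 and 5.99e-15 in edgeR). The enoyl-CoA hydratase family member ech-9 had 37.5, 34.9 and 35.3 CPM in rotenone worms, against 14.3, 13.8 and 13.5 CPM in DMSO worms, a 2.59-fold higher mean level in the fit. ech-7, of the same family, rose 1.81-fold and ech-1.1, a subunit of the trifunctional protein, 1.39-fold.

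Calls went both ways across a list for mitochondrial beta-oxidation, which held members of the cpt, ech and acdh families. Whether every member acts in that pathway was not checked. Of 25 members, 7 rose and 8 fell, with a median log2 difference of -0.03, while library totals gave 13 and 5. Over all genes 21.3% rose and 23.3% fell. The carnitine palmitoyltransferases, which carry acyl groups into mitochondria, were at log2 0.09 for cpt-1, -0.40 for cpt-3 and -0.51 for cpt-5. The acyl-CoA dehydrogenase acdh-9 fell, with 78.3, 78.3 and 77.8 CPM in rotenone worms, against 105, 106 and 105 CPM in DMSO worms, groups that did not overlap. The thiolases kat-1 and acaa-2, which act at the last step of the cycle, fell by smaller amounts, with log2 differences of -0.22 and -0.26.

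Most genes of fatty acid desaturation fell, while a fatty acid synthase gene rose and elongases went both ways. The delta-9 desaturases, which make monounsaturated fatty acids, showed the strongest falls of the list. fat-5 had 19.99, 22.01 and 22.02 CPM in rotenone worms, against 75.5, 87.6 and 81.2 CPM in DMSO worms. fat-7 had 6.14, 6.93 and 7.16 CPM in rotenone worms, against 27.9, 27.5 and 26.7 CPM in DMSO worms. fat-6 had 91.7, 90.4 and 98.05 CPM in rotenone worms, against 206, 221 and 212 CPM in DMSO worms. None of the 3 genes had overlapping groups, a lack of overlap shared by 54.3% of all genes. The levels of DMSO worms were 3.82-fold, 4.06-fold and 2.28-fold those of rotenone worms (adjusted p = 1.08e-15, 1.03e-11 and 1.56e-14 in edgeR). fat-6 and fat-7 are near-identical, and since how reads that match both were counted is not given, their separate values are uncertain. Of 15 desaturases and elongases, 4 rose and 8 fell, at a median of -0.09 (5 and 7 with library totals). fat-2 and fat-1, which add later double bonds, were at -0.36 and -0.35, and fat-3 was at 0.15. The elongase elo-2 rose, with 109, 109 and 113 CPM in rotenone worms, against 69.1, 69.9 and 66.3 CPM in DMSO worms, and elo-5, which acts on branched-chain fatty acids, rose 1.23-fold. The elongases elo-1 and elo-3 were called lower, at -0.28 and -0.09, and elo-4 higher, at 0.37. The call of elo-4 was lost without rotenone replicate 3 or DMSO replicate 1 or 3. The fatty acid synthase gene fasn-1 had 804, 792 and 777 CPM in rotenone worms, against 566, 577 and 590.0 CPM in DMSO worms, one of the 8 largest rises in CPM. Carriers of fatty acids fell: of 17 lipid-binding proteins none rose and 9 fell, at a median of -0.16, and library totals gave 4 up and 7 down; 1 rose without rotenone replicate 3 or DMSO replicate 1 or 2. Among them far-4 was at log2 -1.14 and lbp-7 at -1.02.

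**Figure D2:**
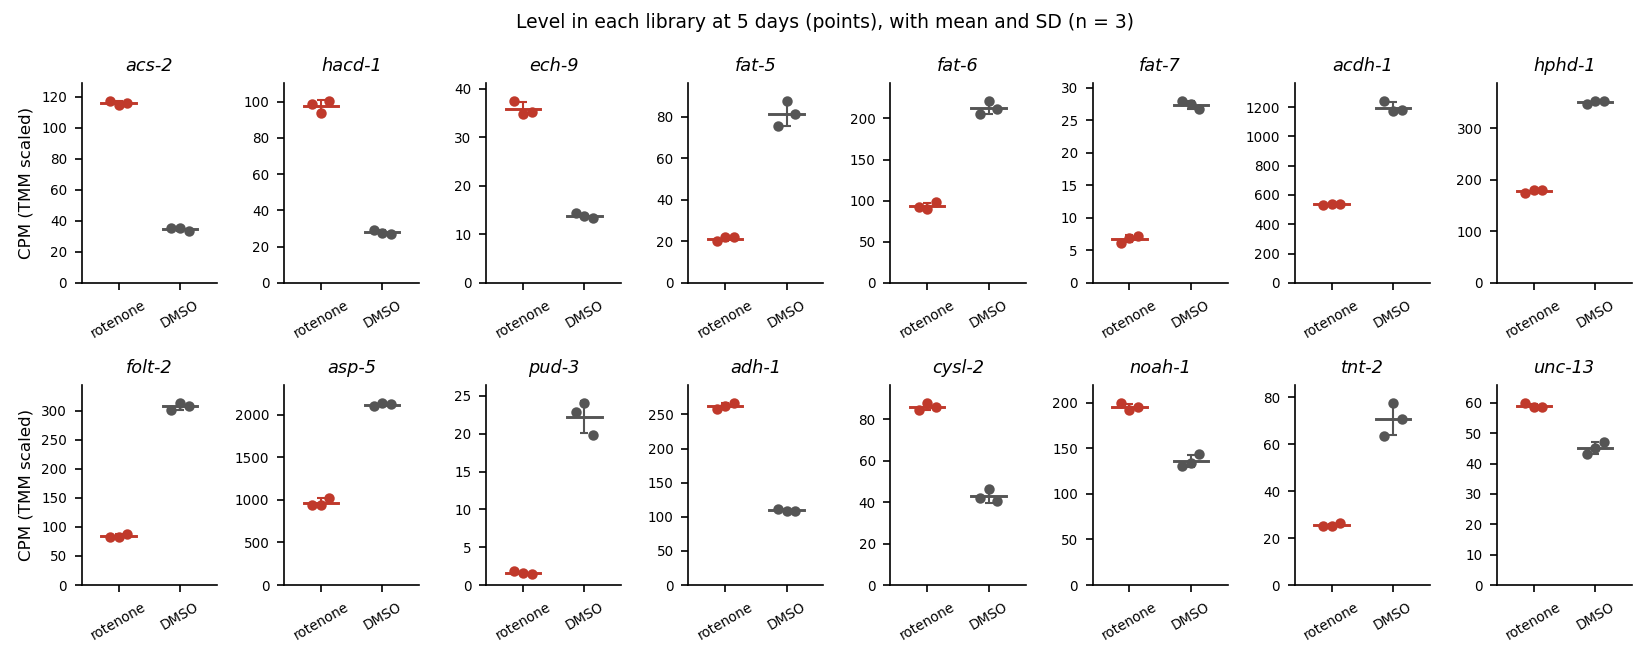
Level of 16 genes in each library at 5 days (CPM, axes from 0), rotenone left and DMSO right, with mean and SD (n = 3). In each panel the groups do not overlap, as in 54.3% of all genes. After rotenone hacd-1 and acs-2 are higher and fat-5, fat-6 and fat-7 lower.

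The propionate shunt, a set of enzymes that breaks down propionate when vitamin B12 is scarce, fell at every step. All 5 of its genes were called lower, at a median of -0.75, and all 5 stayed lower with library totals. The first enzyme, the acyl-CoA dehydrogenase acdh-1, had 532, 536 and 539 CPM in rotenone worms, against 1241, 1170.5 and 1179.8 CPM in DMSO worms. hphd-1, a hydroxyacid-oxoacid transhydrogenase, had 174, 179.8 and 180.5 CPM in rotenone worms, against 348, 353 and 352 CPM in DMSO worms. The log2 differences were -1.16 ± 0.06 for acdh-1, -0.98 ± 0.05 for hphd-1, -0.75 ± 0.03 for the hydrolase hach-1, -0.61 ± 0.03 for the hydratase ech-6 and -0.33 ± 0.03 for the last enzyme, alh-8. In the B12-dependent pathway, the carboxylase subunits pcca-1 and pccb-1 were higher by 0.14 and 0.18 and the mutase mmcm-1 was at -0.13. The epimerase mce-1 was at -0.13 and lost its call without rotenone replicate 1 or 3 or DMSO replicate 1 or 2; mmaa-1 was at -0.05 and not called. The shunt regulators moved in opposite directions, nhr-10 at 0.20 and nhr-68 at -0.18.

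In methionine and folate metabolism 6 of 20 genes rose and 6 fell, at a median of 0.02 (10 and 2 with library totals). folt-2, a member of the folate transporter family, was among the 12 largest log2 falls of genes that averaged at least 1 CPM and had groups that did not overlap, with 82.8, 83.2 and 87.6 CPM in rotenone worms, against 301, 312 and 308 CPM in DMSO worms. Its relative folt-3 was lower as well, at -1.99 from a low level, while folt-1 was at -0.02 and not called. The 4 genes of S-adenosylmethionine synthetase, which makes the cell's methyl donor, all rose, from log2 0.18 for sams-4 to 0.40 for sams-1; sams-5 lost its call without DMSO replicate 1. The methionine synthase gene metr-1 was at 0.05 and not called.

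Peroxisomal enzymes that shorten the side chains of ascaroside pheromones were lower in 7 of 13 genes and higher in 2, at a median of -0.22 (6 and 3 with library totals). The acyl-CoA oxidase acox-1.6 had 22.05, 21.8 and 22.3 CPM in rotenone worms, against 36.5, 37.9 and 37.7 CPM in DMSO worms, and the thiolase daf-22 and the dehydrogenase dhs-28 were at log2 -0.28 and -0.31. The 2 rises were acox-1.1 at 0.10 and acox-3 at 0.13. Neither rise was called without rotenone replicate 2 or without DMSO replicate 3, and that of acox-1.1 was also lost without rotenone replicate 1 or 3 or DMSO replicate 1. Among 30 short-chain dehydrogenases 6 rose and 16 fell (10 and 12 with library totals), with dhs-8 at 0.75 and dhs-3, found on lipid droplets, at -0.81.

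Digestive and lysosomal hydrolases fell broadly. Of 13 aspartyl proteases none rose and 10 fell, at a median of -0.61 with both scalings giving the same count. asp-5 had 938, 942 and 1027 CPM in rotenone worms, against 2098, 2133 and 2123 CPM in DMSO worms, and asp-6 had 1714, 1670.1 and 1883 CPM in rotenone worms, against 3193, 3357 and 3352 CPM in DMSO worms. Both genes had no overlap between groups, as was the case in 54.3% of all genes. Together the 13 aspartyl proteases took 0.694 ± 0.0342% of all counts after rotenone and 1.122 ± 0.0204% in DMSO (SD, n = 3 each, exact two-sided permutation test, p = 0.1, the smallest this design allows). Among 11 cysteine cathepsins 7 fell, cpr-5 most with a log2 difference of -1.298 ± 0.05, and cpr-3 rose; library totals gave 7 falls and 3 rises. Lysozymes, which break bacterial cell walls, fell in 7 of 13 genes and rose in 2 (7 and 3 with library totals). ilys-5 had 89.9, 93.2 and 97.9 CPM in rotenone worms, against 327, 332 and 316 CPM in DMSO worms, and lys-7 was at -1.05, while the rises were lys-3 and ilys-4 at 0.31 and 0.38.

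The yolk genes fell with the hydrolases, all 6 of 6 at a median of -0.95, with 6 falls under library totals too. The largest fall was in vit-4, with 39.8, 42.2 and 42.1 CPM in rotenone worms, against 150.97, 154 and 155 CPM in DMSO worms, and the most abundant, vit-6, had 17769.7, 17561 and 19086 CPM in rotenone worms, against 27846, 29630.2 and 29876 CPM in DMSO worms. vit-3, vit-4 and vit-5 are near-identical, so their separate values are uncertain. Vitellogenins took 4.00 ± 0.146% of counts after rotenone and 5.62 ± 0.146% in DMSO (SD, n = 3 each; exact p = 0.1). Of 17 intestine markers 9 fell and 2 rose, at a median of -0.26 (9 and 6 with library totals). Their summed level was 5523 to 6027 CPM in rotenone libraries and 9235 to 9750 CPM in DMSO libraries. These markers include the proteases asp-1, asp-4, asp-5, cpr-1 and cpr-5, which fell and are already counted among the hydrolases above. The intestinal regulators elt-2 and elt-7 were at 0.08 and -0.01, neither called, and the peptide transporter pept-1 was at 0.00. The part of intestinal RNA content in these falls was not tested.

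A list for the hypoxia factor HIF-1 and the response to hydrogen sulfide held the factor and its regulators together with their targets. Of 12 genes tested 8 rose and none fell, at a median of 0.32 (9 and 0 with library totals; 1 fell with RLE factors). cysl-2, a cysteine synthase family enzyme, had 84.4, 87.6 and 85.7 CPM in rotenone worms, against 42.1, 46.5 and 40.3 CPM in DMSO worms. The nuclear receptor gene nhr-57 rose 1.46-fold, the sulfide oxidoreductase sqrd-1 1.35-fold and egl-9, the prolyl hydroxylase that marks HIF-1 for destruction, 1.29-fold. hif-1 itself was at log2 0.07 and vhl-1 at -0.03, neither called. The eighth rise, F22B5.4, was not called when rotenone replicate 1 or 2 or DMSO replicate 2 or 3 was left out.

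Several enzyme genes are described singly here, since their families were not counted. fmo-2, a flavin monooxygenase, had 29.6, 27.97 and 29.4 CPM in rotenone worms, against 9.43, 10.46 and 10.2 CPM in DMSO worms. gst-14, a glutathione S-transferase, had 42.3, 44.3 and 42.1 CPM in rotenone worms, against 13.1, 13.9 and 11.38 CPM in DMSO worms, and cyp-33C8, a cytochrome P450, had 253, 257 and 249.7 CPM in rotenone worms, against 101, 106 and 98.2 CPM in DMSO worms. All 3 had groups that did not overlap, as was the case in 54.3% of all genes. cyp-13A8 and cyp-13A7 rose 3.42-fold and 3.1-fold and gst-30 and gst-12 2.84-fold and 2.65-fold; the pairs gst-12 and gst-14, and cyp-13A7 and cyp-13A8, share much sequence and their separate values are uncertain. adh-1, an alcohol dehydrogenase, had 258, 263 and 266 CPM in rotenone worms, against 111, 108 and 109 CPM in DMSO worms. It overlaps sodh-2 on the opposite strand, and whether counting used strand is not stated, so the 2.25-fold higher value of sodh-2 cannot be told apart from reads of adh-1. Iron and cadmium genes moved both ways, with the ferritin ftn-1 at 27.98, 31.2 and 30.04 CPM in rotenone worms, against 56.6, 56.7 and 59.7 CPM in DMSO worms, cdr-1 at log2 -0.99 and cdr-4 at 0.59; of 18 metal genes 6 rose and 6 fell (9 and 5 with library totals).

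The largest falls of genes above 1 CPM were those of pud-3 and pud-4, genes named for their regulation by daf-2 that lie on chromosome V. pud-3 had 1.79, 1.54 and 1.46 CPM in rotenone worms, against 22.8, 24.0 and 19.9 CPM in DMSO worms. pud-4 had 1.16, 1.1 and 1.03 CPM in rotenone worms, against 9.4, 9.82 and 8.56 CPM in DMSO worms. Every rotenone library was below every DMSO library, which the choice of the 12 largest falls required. The log2 differences were -3.80 ± 0.19 and -3.07 ± 0.15. The O-acyltransferase homologue oac-32 had 1.03, 0.996 and 1.13 CPM in rotenone worms, against 6.11, 5.79 and 6.14 CPM in DMSO worms, while its family of 36 tested genes had 8 rises and 6 falls (10 and 3 with library totals; 3 falls without rotenone replicate 2 or with DESeq2). Others of the 12 largest log2 falls were C32H11.4, T28D6.3, the collagen col-183, T12D8.5 and clec-43, a C-type lectin, at log2 -2.36, -2.29, -2.16, -2.02 and -1.87. Of the 12 largest log2 rises under the same limits on level and overlap, F40G12.5, the lectin clec-9 and nspe-6 were at 1.88, 1.85 and 1.43, and the lectin clec-70 rose 3.03-fold.

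**Figure D3:**
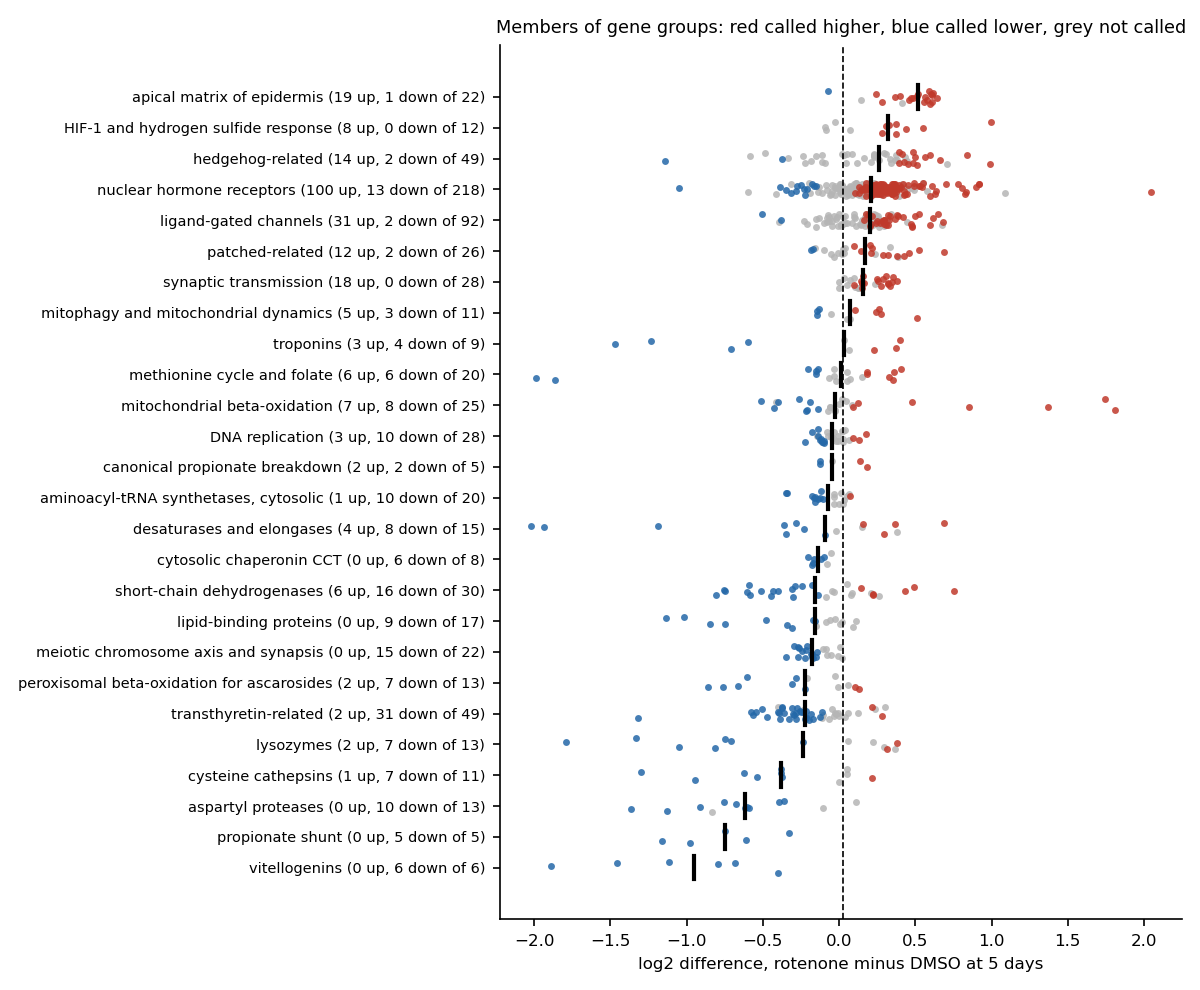
Log2 difference (rotenone minus DMSO at 5 days) of each tested member of 26 gene groups, with the group median as a black bar and the median of all genes as a dashed line. The ligand-gated channels include 3 muscarinic receptors. Apical matrix genes lie almost wholly to the right, and vitellogenins, the propionate shunt and aspartyl proteases to the left.

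Genes of the apical extracellular matrix, which shapes epidermal surfaces beneath or before the collagen cuticle, rose together. Of 22 tested, 19 rose and 1 fell, at a median of 0.52 (21 and 0 with library totals). noah-1, a zona pellucida domain protein of the embryonic sheath, had 199, 192 and 195 CPM in rotenone worms, against 131, 134 and 144 CPM in DMSO worms. The fibrillin-like fbn-1 and the lipocalin lpr-3 rose 1.51-fold and 1.56-fold. The 1 fall, egg-6, was at -0.07, was lost without any one library other than DMSO replicate 2, and was at 0.05 with library totals. lpr-2 and ram-5 were at 0.14 and 0.41, not called. Hedgehog-related genes, which are secreted proteins of the epidermis, rose in 14 of 49 and fell in 2 (22 and 2 with library totals; 5 falls with the 6 libraries alone). Patched-related genes rose in 12 of 26 and fell in 2 (15 and 0 with library totals), with ptr-4 at 51.8, 51.0 and 53.2 CPM in rotenone worms, against 31.9, 31.5 and 33.5 CPM in DMSO worms. Cuticle collagens had 33 rises and 33 falls in 176 genes, but 53 rises and 27 falls with library totals and 19 rises with DESeq2; col-19, an adult collagen, was at -0.42 and the embryonic and larval dpy-7 at 0.65. The rise of the hedgehog-related group came to 8 genes with DESeq2.

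Embryo markers were higher beside these genes: of 12 tested, 6 rose and 1 fell, at a median of 0.26 (8 and 0 with library totals). pes-10, expressed in early embryos, had 3.81, 3.65 and 3.92 CPM in rotenone worms, against 2.74, 2.55 and 2.29 CPM in DMSO worms. The summed level of the markers was 236 to 240.2 CPM in rotenone libraries and 234 to 237 CPM in DMSO libraries. tbx-37 and tbx-38, near-identical T-box genes, were at 0.64 and 0.49; tbx-37 lost its call without rotenone replicate 2 or DMSO replicate 1 or 2, and tbx-38 without DMSO replicate 1. end-1 and end-3 were at 0.22 and 0.19, not called. The fall, pal-1, was lost when any one library other than DMSO replicate 2 was left out. Whether embryos held in the worms bear on the epidermal genes was not tested.

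Muscle genes split within families. Of 9 troponins 3 rose and 4 fell (5 and 4 with library totals). The troponin T gene tnt-2 had 25.3, 25 and 26.3 CPM in rotenone worms, against 63.7, 77.4 and 71.0 CPM in DMSO worms, and the troponin I gene unc-27 had 59.5, 60.1 and 60.1 CPM in rotenone worms, against 135, 150.3 and 136 CPM in DMSO worms. In both genes every rotenone library lay below every DMSO library, while tni-1 and tnt-4, which encode other troponin I and T proteins, rose 1.32-fold and 1.3-fold. The myosin heavy chains of body wall muscle differed likewise, unc-54 at log2 -0.52 and myo-3 at 0.27. The giant proteins unc-89 and ttn-1 were at 0.24 and 0.28, and unc-22 at -0.07, not called. Over 29 sarcomere and attachment genes 11 rose and 8 fell, with 18 and 6 under library totals.

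Synaptic genes rose by small amounts. Of 28 tested, 18 rose and none fell, at a median of 0.16 (27 and 0 with library totals). unc-13, which primes synaptic vesicles, had 59.8, 58.6 and 58.5 CPM in rotenone worms, against 43.3, 45.3 and 47.04 CPM in DMSO worms, and the active zone gene unc-10 rose 1.28-fold. snb-1, egl-21 and unc-25 were at 0.04, -0.00 and -0.00, none called. Of 13 neuron markers 7 rose and none fell (13 and 0 with library totals), and 4 rose with DESeq2. These markers share genes with the synaptic list, and unc-31, ric-4, ida-1, unc-104 and snt-1 are rises of both. A list of ligand-gated channels also held the muscarinic receptors gar-1, gar-2 and gar-3, which are coupled to G proteins. Of its 92 genes 31 rose, gar-2 and gar-3 among them, and 2 fell (43 and 2 with library totals), but the rises came to 18 without rotenone replicate 1, 16 without rotenone replicate 2 and 10 with DESeq2. Of 14 dopamine genes 2 rose and 4 fell, at a median of 0.15 (7 and 3 with library totals; no rise and 4 falls with DESeq2). No rise was left without rotenone replicate 1 or 2 or DMSO replicate 1, and 1 without rotenone replicate 3 or DMSO replicate 3. Among the falls were the cofactor synthesis genes ptps-1 and cat-4 at -1.06 and -0.72, while the dopamine-specific cat-2 and dat-1 were at 0.02 and 0.27, not called.

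Nuclear hormone receptors rose in 100 of 218 genes and fell in 13, at a median of 0.21 (141 and 5 with library totals). The largest rise was nhr-265, with 1.16, 0.788 and 1.15 CPM in rotenone worms, against 0.234, 0.233 and 0.281 CPM in DMSO worms. nhr-25, needed for moulting and epidermal development, rose 1.35-fold. Homeobox ceh genes rose in 22 of 56 and fell in 4 (35 and 2 with library totals), with 11 rises under DESeq2; ceh-17, at 0.79, lost its call without rotenone replicate 2 or 3 or DMSO replicate 1 or 2. Of 34 globins 7 rose, a share near the 21.3% of all genes, and none fell (10 and 0 with library totals); 4 rose without rotenone replicate 1 or with DESeq2.

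Groups of germ line and translation genes had more falls than rises with TMM scaling, and most lost that balance with library totals. Of 22 genes for meiotic chromosome axis and synapsis none rose and 15 fell, at a median of -0.18 (2 and 7 with library totals); the axis gene him-3 had 94.2, 96.2 and 96.6 CPM in rotenone worms, against 121, 116 and 115 CPM in DMSO worms. Germ line and oocyte markers fell in 7 of 14 and rose in 1, which became 3 and 6 with library totals, with glh-1, a germ granule helicase, at -0.35 and their summed level at 8026 to 8272 CPM in rotenone libraries and 8485 to 8537 CPM in DMSO libraries. DNA replication genes fell in 10 of 28 and rose in 3, which became 1 and 14 with library totals. Cytosolic aminoacyl-tRNA synthetases fell in 10 of 20 and rose in 1, which became 2 and 10 with library totals. The 1 rise, hars-1, lost its call without rotenone replicate 3 or DMSO replicate 3. The chaperonin CCT fell in 6 of 8, which became 1 down and 1 up. The balance of rises and falls in these 4 groups (germ line markers, replication, synthetases and CCT) thus depended on scaling. Over all genes it moved likewise, from 4006 falls and 3662 rises with TMM to 1774 and 6498 with library totals. Within CCT, cct-1 was at -0.20, and cct-3 and cct-4 were not called. Transthyretin-related genes fell in 31 of 49 and rose in 2 (17 and 4 with library totals; 1 rise without DMSO replicate 3), ttr-37 most, at -1.32.

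No regulator of metabolism and lifespan was called at 2-fold or more, and their median log2 difference was -0.04, beside 0.03 over all genes. Over all genes 21.3% rose and 23.3% fell. Of 33, 8 rose and 12 fell (15 and 4 with library totals), and the rises came to 3 without rotenone replicate 3, 4 without DMSO replicate 1 and 4 with DESeq2. nhr-49 had 179, 179.7 and 178 CPM in rotenone worms, against 189, 180.3 and 188 CPM in DMSO worms and was not called, and its partner nhr-80 was at -0.28. The stress factor skn-1 was at -0.18, pqm-1 at -0.34 and sbp-1, the worm's SREBP, at -0.15, all called lower. daf-16, the FOXO factor of insulin signalling, was at -0.07 and mdt-15, a Mediator subunit, at -0.08. Both calls were lost without rotenone replicate 1 or 2 or DMSO replicate 3, that of daf-16 also without DMSO replicate 1 and that of mdt-15 without DMSO replicate 2, and both values were above 0 with library totals. hlh-30 was at 0.11, lost without rotenone replicate 3 or DMSO replicate 1, while atfs-1 and hsf-1, factors of the mitochondrial unfolded protein and heat shock responses, were at -0.04 and -0.03, not called.

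Of 11 genes for mitophagy and mitochondrial dynamics 5 rose and 3 fell (7 and 0 with library totals). The fission factor mff-2 had 62.4, 61.2 and 65.98 CPM in rotenone worms, against 43.7, 44.7 and 44.5 CPM in DMSO worms, and the mitophagy receptor dct-1 and the adaptor sqst-1 rose 1.21-fold and 1.19-fold. pink-1 and pdr-1, worm PINK1 and Parkin, were at -0.14 and -0.14. The fusion genes fzo-1 and eat-3 were at -0.05 and 0.07, not called. The adenine nucleotide translocator ant-1.1 and the uncoupling protein ucp-4 were at -0.09 and -0.11; the first call was lost without rotenone replicate 1 or 2 or DMSO replicate 2, the second without rotenone replicate 1 or 3 or DMSO replicate 1 or 3.

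Other gene groups showed few calls or calls in both directions, beside 21.3% of all genes called higher and 23.3% called lower. Aquaporins rose in 4 of 12 and fell in 3 (4 and 1 with library totals), with aqp-1 at 45.3, 44.2 and 48.8 CPM in rotenone worms, against 31.6, 32.3 and 31.8 CPM in DMSO worms. Insulin-like peptides rose in 2 of 33 and fell in 6, a balance that library totals turned to 6 rises and 2 falls; with TMM there were 2 falls without rotenone replicate 2 or 3 and 3 without DMSO replicate 3. Astacin metalloproteases rose in 11 of 31 and fell in 5 (13 and 3 with library totals), but the rises came to 5 to 7 without any 1 library and 2 with DESeq2. F-box A genes rose in 25 of 145 and fell in 21 (45 and 13 with library totals), with 15 rises without DMSO replicate 2 and 14 with DESeq2. Long intergenic noncoding RNAs of the list rose in 6 of 66 and fell in 6 (8 and 3 with library totals). Without rotenone replicate 1 they had 3 rises and 2 falls, and without rotenone replicate 2 or DMSO replicate 2 or 3 they had 3 falls; DESeq2 gave 2 rises. Neuropeptide genes of the nlp class rose in 5 of 69 and fell in 8, which turned to 16 and 5 with library totals, and 2 rose with DESeq2. Acyl-CoA synthetases rose in 6 of 22 and fell in 5, shares near those of all genes (9 and 2 with library totals). Eggshell genes rose in 3 of 26 and fell in 6, which turned to 17 and 3 with library totals. Epidermis markers rose in 5 of 12 and fell in 2 (7 and 1 with library totals), and body wall muscle markers rose in 3 of 10 and fell in 6 (3 and 5). The muscle markers include the troponin genes tnt-2, unc-27 and tni-1 counted above. Sperm markers rose in 1 of 11 and fell in 3 (1 and 2 with library totals), at a summed level of 6.98 to 8.03 CPM in rotenone libraries and 6.88 to 8.21 CPM in DMSO libraries.

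Runs of at least 3 neighbouring tested genes, all called the same way and past 1.5-fold (521 genes up, 3.04%; 472 down, 2.75%), numbered 12. They held 24 genes in 7 runs up and 17 genes in 5 runs down. The number of runs depended on the libraries and on the processing. It was 7 without rotenone replicate 2, 8 to 11 without any other single library, 6 with DESeq2 and 36 with library totals. At least 3 shared genes of a run were left together in 6 of the 12 runs without rotenone replicate 2, in 7 without rotenone replicate 1 or DMSO replicate 2 or 3, and in 5 with DESeq2. On chromosome V, asp-6, asp-12 and asp-5 lay side by side between 8267511 and 8274044 and all fell. On chromosome I, pals-5, pals-9, pals-6 and pals-14 rose between 13130813 and 13141898; the rise of pals-5 was lost without DMSO replicate 2. On chromosome II, nspe-6, nspe-3, nspe-2 and nspe-1 rose between 12615828 and 12620864, with nspe-2 at 22.4, 23.5 and 21.1 CPM in rotenone worms, against 10.3, 11.8 and 9.93 CPM in DMSO worms. Neighbours can share sequence, and how such reads were counted is not stated.

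Calls differed by chromosome and by level. On the X chromosome 30.98% of 2495 genes rose and 13.1% fell, while on the autosomes 19.7% of 14512 rose and 25.2% fell. Genes over 100 CPM rose in 13.9% and fell in 50.6%, and genes of 1 to 10 CPM rose in 29.7% and fell in 11.5%. Between 10 and 100 CPM, X genes had a median log2 difference of 0.10 and autosomal genes of -0.06. Longer genes rose more often, 43.2% of those over 4000 exonic bases against 10.03% of those of up to 500. The part of level, length and chromosome in the group counts above was not tested.

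**Figure D4:**
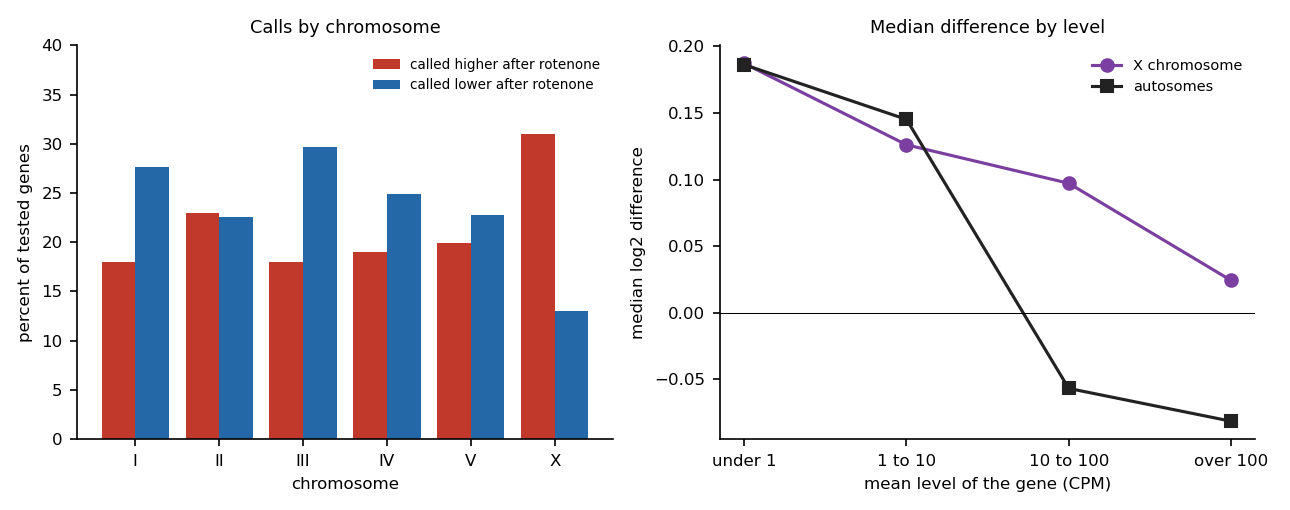
Left, percent of tested genes called higher (red) or lower (blue) after rotenone on each nuclear chromosome; right, median log2 difference (rotenone minus DMSO) by mean level for X and autosomal genes. The X chromosome is at 30.98% higher and 13.1% lower, and the medians part above 10 CPM.

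The large differences of 5-day worms were smaller in worms of 15 days. A difference between the ages (15-day difference less the 5-day one) was called in 4419 genes (25.7%), and rotenone against DMSO at 15 days in 70 (0.408%). The 12 largest rises had a median log2 difference of 0.05 at 15 days and 1.69 at 5 days, and the 12 largest falls of -0.17 at 15 days and -2.09 at 5 days. These genes were chosen for their size at 5 days, which by itself favours a smaller value at the other age. All 24 had an adjusted p under 0.05 for the difference between ages. acs-2 and fmo-2 were still called at 15 days, at 0.88 and 0.77, beside 1.74 and 1.53 at 5 days. hacd-1 was at -0.08 at 15 days and 1.81 at 5 days.

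**Figure D5:**
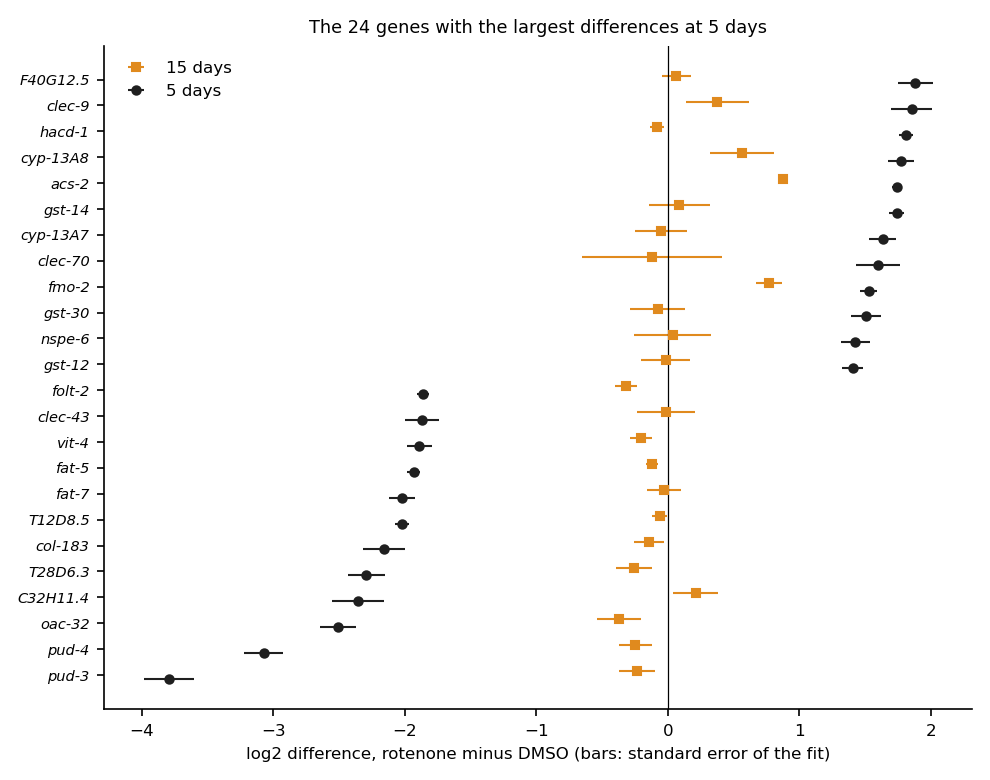
Log2 difference, rotenone minus DMSO, of the 24 genes with the largest differences at 5 days, at 15 days (squares) and at 5 days (circles), with the standard error of the fit. At 15 days acs-2 and fmo-2 remain near 0.88 and 0.77, and the other genes lie nearer to 0.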

How the data were processed

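RNA of whole N2 hermaphrodites was measured in 12 libraries in 4 groups of 3, and 6 libraries at 5 days were compared. The authors deposited counts per gene, whole numbers without normalization; per the submitters' processing notes, bcl2fastq 1.8.3, STAR 2.4.1d, featureCounts 1.4.6-p4 and the build WBcel235 were used, and settings are not given in the sources used here. Symbols and positions came from an Ensembl annotation of that build. The deposited RPKM table was not used here. In R 4.3.3, edgeR 4.0.16 kept 17166 of 46748 genes (filterByExpr, minimum count 10), scaled libraries with TMM factors and tested 1 quasi-likelihood model of the 4 groups without covariates, two-sided, with Benjamini-Hochberg adjustment over all genes tested. The standard error is the size of the log2 difference divided by the square root of F. On simulated data for this comparison, of 50 genes each, 50 were called at a log2 difference of 1, 47 at 0.5, 45 at -0.5 and 49 at -1, as were 10 of 16677 unchanged genes. The simulation changed only genes of at least 1 CPM, equally up and down, with the same dispersion for all genes and no scaling shift. It therefore cannot speak to changes in genes under 1 CPM or to calls that depend on scaling.

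Same-numbered libraries shared a sequencing lane, per the labels. Deviations from group means correlated at 0.12, -0.01 and 0.21 in the 3 same-lane pairs over 13363 genes. Pairs of different lanes lay between -0.22 (rotenone lane 3, DMSO lane 1) and 0.13 (rotenone lane 2, DMSO lane 1). Replicates of a group differed by more than counting noise, so none was counted as a copy. Intervals are not given for single libraries; the SD over 3 libraries and the standard error stand for precision. Alternatives were RLE factors, library totals, no filter, the 6 libraries alone, the lane as a block, DESeq2 1.42.0 and leaving out each library. Counting runs of neighbouring genes again under these fits was chosen after seeing the data.

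Members, gene lists and the naming rule were chosen with earlier results of these data known. The rule names the 12 largest called log2 rises and falls at 1 CPM or more with groups that do not overlap, and the 8 largest of each in CPM. It also names the 3 largest called rises and falls of each list and every member of lists of up to 13 genes. Last, it names every listed regulator, genes in runs of neighbours, and genes prominent in earlier work on these data. It names 471 genes, of which the text gives a part, picked for known roles after their values were seen, with 53 other genes chosen after their values were seen.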

Additional observations from a re-analysis of the deposited data

Results flagged for a closer look

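The 24 genes with the largest differences at 5 days stood out because their rotenone difference was not the same at the 2 ages, by the interaction term of the edgeR fit (adjusted p at most 0.0365 in the rises and 4.23e-05 in the falls). They were chosen for their size at 5 days, which favours such a result. For the rises, the log2 difference at 15 days minus that at 5 days was -1.89 for hacd-1, -1.82 for F40G12.5, -1.72 for clec-70, -1.68 for cyp-13A7, -1.65 for gst-14 and -1.58 for gst-30. It was -1.48 for clec-9, -1.43 for gst-12, -1.39 for nspe-6, -1.21 for cyp-13A8, -0.87 for acs-2 and -0.76 for fmo-2. For the falls it was 1.54 for folt-2, 1.69 for vit-4, 1.81 for fat-5, 1.85 for clec-43, 1.96 for T12D8.5 and 1.99 for fat-7. It was 2.02 for col-183, 2.03 for T28D6.3, 2.14 for oac-32, 2.57 for C32H11.4, 2.83 for pud-4 and 3.56 for pud-3. All 12 rises and all 12 falls were smaller in size at 15 days than at 5 days, and the cause was not tested.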

How the results depend on the processing

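With library totals in place of TMM factors the median of all genes was 0.15 instead of 0.03, 6498 genes rose (180 at least 2-fold) and 1774 fell. DESeq2 gave 2426 rises, 57 at least 2-fold. Leaving out single libraries gave 6436 to 6990 genes called, 3026 to 3245 up, 3369 to 3751 down, and 3446 to 4103 for the difference between ages; counts past 2-fold moved by less than 1.5 times. With the replicate block of sequencing lanes 98.9% of calls were kept, and no count above moved by over 1.5 times. Of the 524 genes named by the rule or in the text, 415 were called, and 76 of these lost the call or changed sign when some library was left out, 73 of them among the 377 called genes of the rule. DESeq2 lost 33 calls of named genes. Library totals lost 48 among genes that kept their sign, beside those lost among the 20 genes that follow. Library totals turned the sign of 20 named genes with a call on one side, giving log2 differences of 0.0308 for ant-1.1, 0.0819 for atfs-1, 0.0697 for cct-4, 0.00300 for cct-5, 0.0246 for cct-7, 0.117 for cpz-1, 0.0460 for daf-16, 0.0463 for egg-6, 0.117 for egl-21, 0.108 for gob-1, 0.0906 for hsf-1, 0.116 for maoc-1, 0.0394 for mdt-15, 0.000393 for nars-2, 0.0319 for pal-1, 0.100 for rsp-4, 0.00320 for sir-2.1, 0.0905 for tps-1, 0.00734 for ucp-4 and 0.0983 for yars-2. Of 109 named genes without a call, 55 changed sign under some alternative without being called on either side, all within 0.19 of 0; these are not listed. The share of promoters with a motif was not run, because no promoter sequences were used here. Low counts limit genes under 1 CPM, where 7.89% rose and 2.50% fell.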
